A study of Homo sapiens with 12 samples.

Results

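The aminoacyl-tRNA synthetases are the enzymes that attach each amino acid to its transfer RNA before translation. The set comprised 36 nuclear genes chosen by name, 20 for the cytosolic enzymes and 16 for the mitochondrial enzymes, whose symbols end in 2. Their GENCODE 29 identifiers were looked up in both expression tables, which list 59424 genes each, and 35 of the 36 were found. VARS, the cytosolic valine enzyme, was not analysed here, which left 19 cytosolic and 16 mitochondrial members. The rule names genes by enzyme and uses no measured value, but the set and the gene lists were drawn up with earlier results of these data known.

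The libraries came from 2 established prostate cancer cell lines with altered GALNT7, a Golgi enzyme that adds the first sugar of O-linked glycans to proteins. CWR22Rv1, an androgen receptor positive line, carried either a lentiviral control hairpin (shControl) or a GALNT7 knockdown (GALNT7 KD). DU145, an androgen receptor negative line, carried either a lentiviral open reading frame control (OE control) or GALNT7 overexpression (GALNT7 OE). Each of the 4 groups had 3 libraries of polyadenylated RNA labelled as biological replicates, 12 in all. All groups were stably altered lines, and whether the replicates came from separate transductions was not given in the sources used here, so p-values measure the spread between these libraries. In bulk samples a change in the cells' composition and a change in RNA per cell cannot be told apart. The values are normalised read counts, scaled separately in each cell line, and levels are therefore compared within a cell line only.

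Synthetases fall into class I and class II, with unrelated catalytic folds. In the cytosol 8 of the listed enzymes are held together with the scaffold proteins AIMP1, AIMP2 and EEF1E1 in the multisynthetase complex. Mitochondria charge their own tRNAs with separate enzymes encoded in the nucleus, except that GARS and KARS each encode both the cytosolic and the mitochondrial enzyme. Many cytosolic synthetase genes are targets of ATF4, a transcription factor made when phosphorylation of the initiation factor eIF2 slows general translation during amino acid shortage or protein folding stress. ATF4 also raises genes of amino acid synthesis and uptake. A list of 12 cytosolic members taken from textbook knowledge as ATF4-regulated was set beside the other cytosolic members.

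GALNT7 itself moved as labelled in both lines. In CWR22Rv1 its normalised counts were 862, 1042 and 1093 in shControl and 480, 501 and 400 in GALNT7 KD, a log2 fold change of -1.11 (SE 0.13, limma adjusted p = 0.00512). In DU145 they were 1051, 928 and 913 in OE control and 1988, 2221 and 2334 in GALNT7 OE, a log2 fold change of 1.18 (SE 0.086, limma adjusted p = 7.99e-05). Recovered reads numbered 18364512 to 24356910 per library. Of the androgen receptor and luminal markers, 4 of 6 were under 5 normalised counts in every OE control library and none were in shControl. Keratin and other epithelial markers were present in all 4 groups, while endothelial markers summed to at most 55.6 normalised counts in any library. Summed counts of the 5 fibroblast markers were higher in every GALNT7 KD library (676 to 795) than in shControl (265 to 355), and lower in every GALNT7 OE library (61.9 to 157) than in OE control (291 to 423). These sums rest on few genes. In CWR22Rv1 4 of the 5 pointed up and 1 down (log2 fold change -1.4), and 1 of those up passed the limma test. In DU145 1 of the 5 reached the mean count of 5 required for the test, and it fell (log2 fold change -2.01). The 5 leukocyte markers summed to 13.7 to 19.6 in shControl, 21.2 to 29.9 in GALNT7 KD, 72.5 to 132 in OE control and 29.6 to 38.1 in GALNT7 OE. Neither list overlapped between the groups of a line. Such separation was common among single genes, at 32.5% of all tested genes in CWR22Rv1 and 55.3% in DU145. Of the 5 leukocyte markers, 3 were under 5 normalised counts in every library of each group. The part of both lists in the synthetase values was not tested.

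Levels of the cytosolic enzymes exceeded those of the mitochondrial enzymes in both control groups. Per kilobase of the longest protein-coding transcript, the 19 cytosolic members had a median of 1150 normalised counts in shControl (range 175 to 2490), against 312 for the 16 mitochondrial members (range 54.8 to 2070). In OE control the medians were 973 and 152 normalised counts per kilobase. QARS, the glutamine enzyme, ranked first in CWR22Rv1 with 2490 per kilobase (2410 to 2550 over its libraries), and the range of NARS, the asparagine enzyme, overlapped it at 2310 to 2600. AARS, the alanine enzyme, ranked first in DU145 with 2540 per kilobase (2500 to 2600), and its range lay above that of the next member, MARS, at 1580 to 1680.

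The mitochondrial isoleucine enzyme IARS2 stood among the cytosolic levels, at rank 4 of 35 in shControl (2070 per kilobase) and rank 7 in OE control (1190 per kilobase). Of the 12 amino acids with a measured member of the same name in each compartment, the cytosolic gene was higher per kilobase for 10 in shControl and for 11 in OE control. IARS2 exceeded IARS on average in both lines, with a cytosolic to mitochondrial ratio of 0.705 in shControl, where the ranges over libraries were separate, and 0.891 in OE control, where they overlapped (903 to 1150 for IARS and 1140 to 1250 for IARS2). CARS2 exceeded CARS in shControl, where the ratio was 0.427, and not in OE control, where it was 2.49. At the low end stood VARS2, the mitochondrial valine enzyme, which ranked last in both lines. Next above it came PARS2, the mitochondrial proline enzyme, in shControl (100 per kilobase), and MARS2, the mitochondrial methionine enzyme, in OE control (45.6), where PARS2 was at 59.3.

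**Figure D1:**
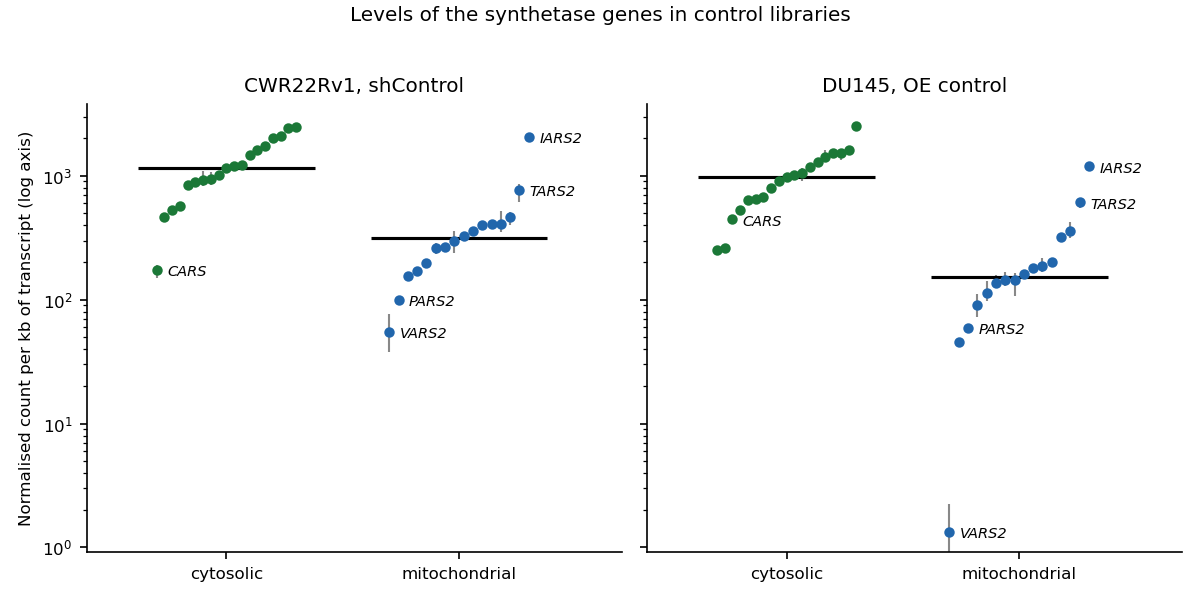
Mean normalised count per kilobase of transcript (log axis) of each synthetase gene in the 3 control libraries of CWR22Rv1 and of DU145, with the lowest and highest library as a vertical line (cut at 0.9) and the list median as a bar. Cytosolic members have the higher median in both lines (1150 against 312, and 973 against 152), and IARS2 lies above the other mitochondrial members.

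VARS2, within the major histocompatibility region of chromosome 6 (GRCh38, 30908242 to 30926459), had 206, 310 and 153 normalised counts in shControl. In DU145 it had 0, 9.2 and 7.05 in OE control and 0 in all 3 GALNT7 OE libraries, below the mean of 5 required for the test. This region has alternative haplotype sequences to which reads can be assigned, so the level of VARS2 and its last rank are uncertain in both lines.

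In DU145, GALNT7 overexpression went with higher mRNA of most synthetases. Of the 19 cytosolic members 17 rose, none fell and 2, QARS and WARS, did not pass the threshold. Of the 15 mitochondrial members tested 9 rose and none fell. The test was limma on log2(normalised count + 1) over 18705 genes, with a Benjamini-Hochberg adjusted p under 0.05. Over all tested genes 22.9% were higher and 20.5% lower by the same rule, and of those whose mean count reached 100, as it did for all tested members, 32.0% were higher. The median log2 fold change was 0.89 for the cytosolic members, a 1.85-fold difference, 0.40 for the mitochondrial members and -0.01 for all genes. The 3 libraries of one group lay outside the range of the other for 28 of 34 members, against 55.3% of all tested genes.

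Summed over the 19 cytosolic members, 2860, 2730 and 2780 of every 1000000 normalised counts came from these genes in the OE control libraries and 4830, 4960 and 4880 in the GALNT7 OE libraries. The groups did not overlap and the 3 libraries within each group were close. The 16 mitochondrial members gave 522, 528 and 502 of every 1000000 in OE control and 754, 766 and 747 in GALNT7 OE.

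**Figure D2:**
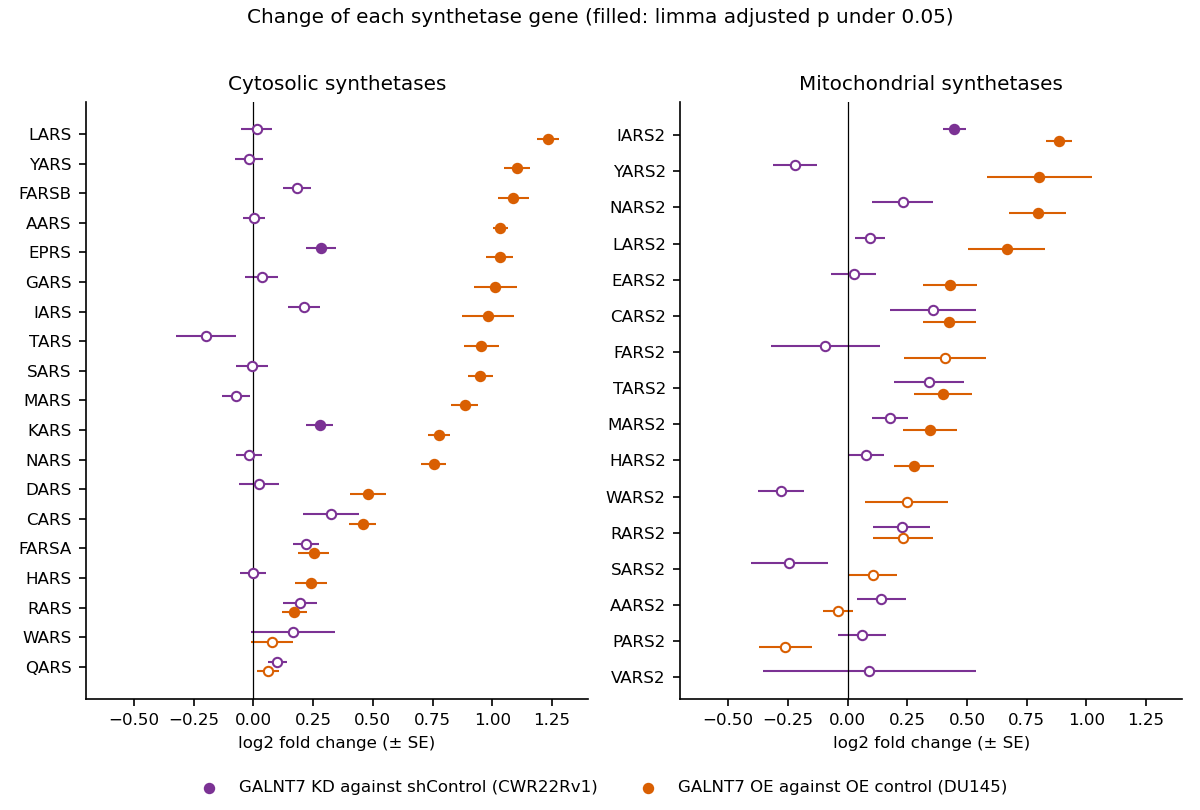
log2 fold change (± SE) of each cytosolic and mitochondrial synthetase gene in GALNT7 KD against shControl and in GALNT7 OE against OE control, ordered by the DU145 value, with filled points for a limma adjusted p under 0.05. In DU145 17 cytosolic and 9 mitochondrial members are filled and all of them lie above 0; in CWR22Rv1 KARS, EPRS and IARS2 are filled.

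Leucine, tyrosine, phenylalanine and alanine enzymes had the highest fold changes. LARS, the leucine enzyme, had normalised counts of 2600, 2419 and 2564 in OE control and 5822, 6138 and 5874 in GALNT7 OE, a 2.35-fold difference (log2 fold change 1.23, SE 0.048, limma adjusted p = 6.38e-06). YARS, the tyrosine enzyme, had 2582, 2529 and 2685 in OE control and 5284, 5576 and 5893 in GALNT7 OE, a 2.15-fold difference (log2 fold change 1.10, SE 0.054, limma adjusted p = 1.46e-05). Each gene's lowest GALNT7 OE library lay well above its highest control library. FARSB, the beta subunit of the phenylalanine enzyme, had 877, 838 and 847 in OE control and 1736, 1771 and 1949 in GALNT7 OE (log2 fold change 1.09, SE 0.066, limma adjusted p = 3.52e-05). Its partner FARSA, the alpha subunit, differed far less, with a log2 fold change of 0.25 (SE 0.067, limma adjusted p = 0.0207). AARS had 9050, 8704 and 8748 in OE control and 18161, 18009 and 18097 in GALNT7 OE, a 2.05-fold difference (log2 fold change 1.03, SE 0.030, limma adjusted p = 2.92e-06).

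**Figure D3:**
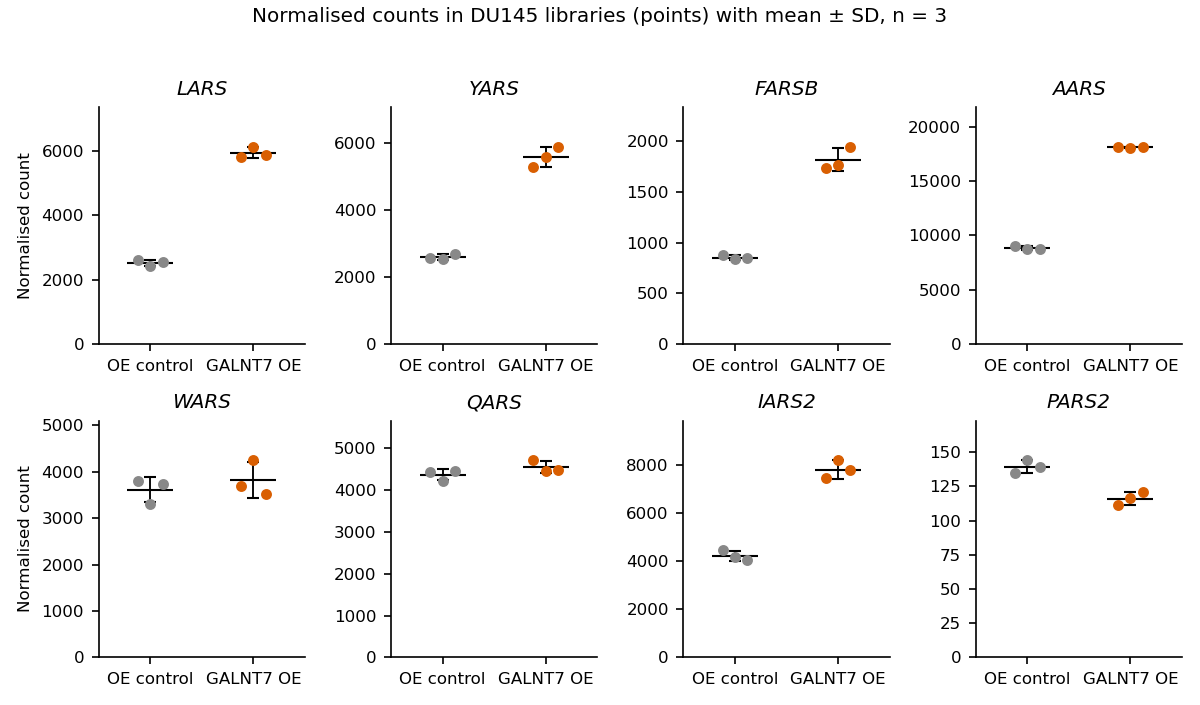
Normalised counts (linear axes from 0) of 8 synthetase genes in each of the 3 OE control and 3 GALNT7 OE libraries of DU145, with the mean and SD. LARS, YARS, FARSB, AARS and IARS2 are higher in every GALNT7 OE library, WARS and QARS overlap between groups, and PARS2 lies lower in GALNT7 OE without passing the test.

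The rise was uneven within the cytosol. Of the 12 members listed as ATF4-regulated (AARS, CARS, EPRS, GARS, IARS, LARS, MARS, NARS, SARS, TARS, WARS and YARS) 11 rose, with a median log2 fold change of 0.97. Of the 7 other cytosolic members measured (DARS, FARSA, FARSB, HARS, KARS, QARS and RARS) 6 rose, with a median of 0.25. FARSB and KARS (0.78) stood above the rest of that group, and DARS, the aspartate enzyme, was at 0.48. HARS, RARS and FARSA ranged from 0.17 to 0.25. FARSA lost its call without OE control replicate 3, GALNT7 OE replicate 2 or GALNT7 OE replicate 3, and HARS without OE control replicate 1 or 3 or GALNT7 OE replicate 2. Both also lost it under 75th percentile scaling and under quantile normalisation. RARS, the arginine enzyme, did not pass in 10 of 16 alternative settings, and kept its call without 1 library only when that was GALNT7 OE replicate 3. The 12 ATF4-listed members ranged from 0.08 for WARS to 1.23 for LARS, and the 7 others from 0.06 to 1.09. Within the listed range YARS was at 1.10 and AARS and EPRS were at 1.03. GARS was at 1.01, IARS at 0.98, TARS and SARS at 0.95, MARS at 0.89 and NARS at 0.75. CARS, the cysteine enzyme, was lower at 0.46.

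ATF4 binds a composite element whose core can be written TGATGNAA, or TTNCATCA when read from the other strand. RefSeq promoter windows on GRCh38.p14, 250 bases before to 50 after each annotated start, were searched for this core on both strands. It occurred in 7 of the 10 ATF4-listed synthetases with a window, in 0 of 6 other cytosolic members and in 1 of 14 mitochondrial members. Of the listed ATF4 pathway genes with a window, 4 of 17 held it. Of all 27305 genes with a window, 4.46% held it. LARS, YARS, DARS, AARS2 and VARS2 had no window in the table. The matches are shown on the strand of the gene, with the 8 bases of the core in capitals, because they are what these promoters have in common.
AARS: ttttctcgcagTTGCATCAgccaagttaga
CARS: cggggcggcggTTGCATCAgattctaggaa
GARS: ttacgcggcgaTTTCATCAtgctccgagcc
IARS: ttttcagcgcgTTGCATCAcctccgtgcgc
MARS: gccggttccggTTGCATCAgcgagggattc
NARS: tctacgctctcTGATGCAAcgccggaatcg
TARS: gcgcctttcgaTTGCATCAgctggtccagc
YARS2: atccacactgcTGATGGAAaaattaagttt
ASNS: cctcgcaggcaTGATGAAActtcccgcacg

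The stretches lie at chr16:70289675-70289704 (AARS, minus strand), chr11:3057407-3057436 (CARS, minus), chr7:30594834-30594863 (GARS, plus), chr9:92293692-92293721 (IARS, minus), chr12:57488053-57488082 (MARS, plus), chr18:57621804-57621833 (NARS, minus) and chr5:33440956-33440985 (TARS, plus). Those of YARS2 and of ASNS, the asparagine synthetase gene shown as a known ATF4 target, lie at chr12:32756076-32756105 (minus) and chr7:97872458-97872487 (minus). Relative to the annotated start the core begins at base -187 in AARS, -33 in GARS, -13 in IARS, -4 in MARS, -2 in CARS, 3 in TARS and 15 in NARS. In 6 of the 10 it was within 50 bases of the start, and in 6 of the 10 the free base was C on the TGATGNAA strand, which 1.08% of all genes with a window showed. Both of these details were counted after the matches had been seen. The 7 cytosolic members with the core had a median log2 fold change of 0.95 in DU145 (range 0.46 to 1.03), and the 9 with a window and no core had a median of 0.25 (range 0.06 to 1.09). Of these 9, 7 rose (EPRS, SARS, FARSB, KARS, FARSA, HARS and RARS). All 7 members with the core are ATF4-listed, so this split largely repeats the split by list and is not separate from it. The listed members with a window and no core were EPRS (1.03), SARS (0.95) and WARS (0.08). The 3 measured cytosolic members with no window, LARS, YARS and DARS, had a median of 1.10 (range 0.48 to 1.23). Binding was not measured, so a match describes letters only.

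Other genes of the ATF4 pathway were higher in the same libraries. ATF4 mRNA itself had normalised counts of 6988, 7069 and 7043 in OE control and 9762, 9474 and 9830 in GALNT7 OE (log2 fold change 0.46, SE 0.033, limma adjusted p = 7.12e-05). Of the 22 listed pathway genes 18 rose, 2 fell and 2 did not pass, with a median log2 fold change of 0.73. Over all tested genes 22.9% were higher and 20.5% lower. ASNS had 950, 998 and 943 in OE control and 4277, 4561 and 4808 in GALNT7 OE, a 4.71-fold difference. SLC7A5, a leucine transporter at the cell surface, rose 3.66-fold and PSAT1, an enzyme of serine synthesis, 3.65-fold. NUPR1, a stress-induced nuclear protein, fell by 0.61 on the log2 scale and VLDLR, a lipoprotein receptor, fell by 0.37. Among the 4 kinases that phosphorylate eIF2, EIF2AK2 (0.45) and EIF2AK4 (0.29), the sensor of uncharged tRNA, passed the test and EIF2AK1 and EIF2AK3 did not. RNA counts do not measure ATF4 protein or the phosphorylation of eIF2. The part of ATF4 in the rise of the synthetases was not tested.

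**Figure D4:**
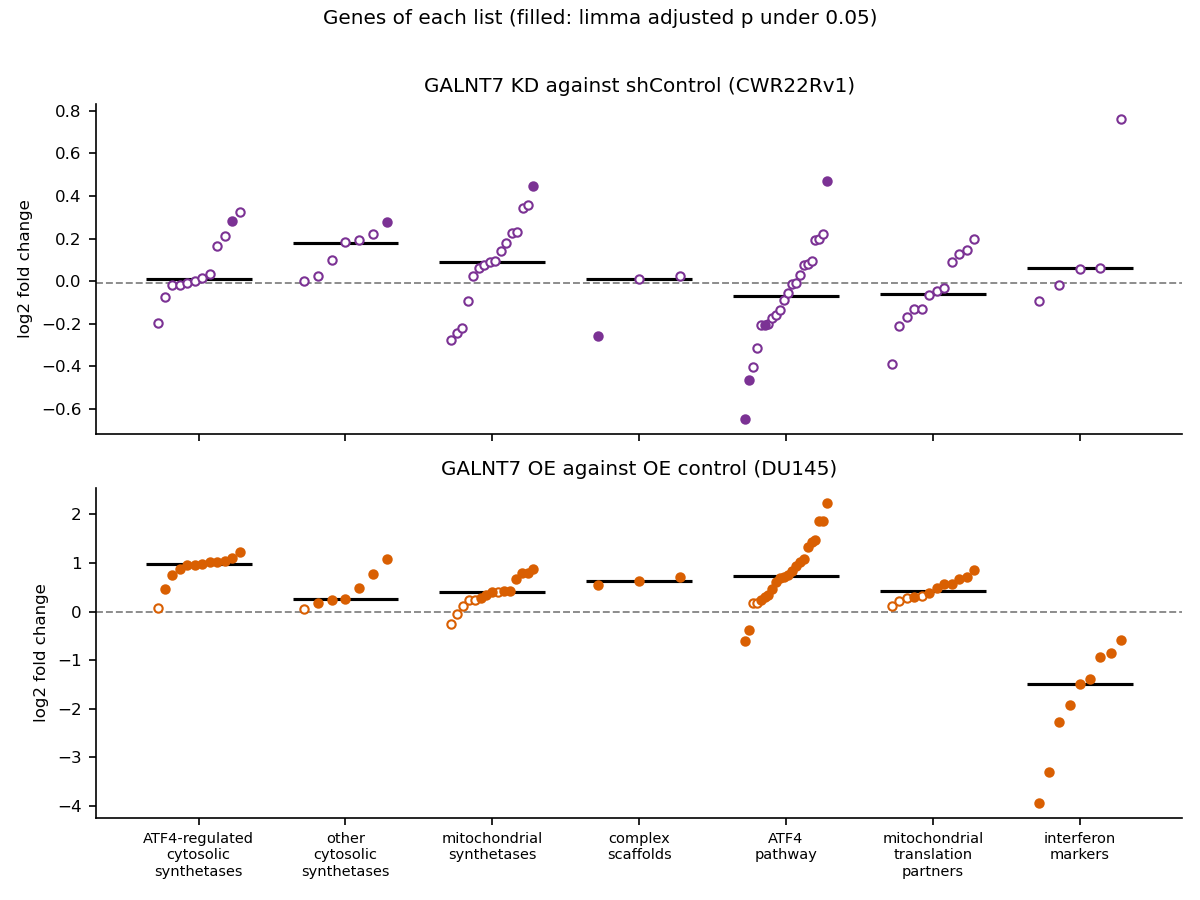
log2 fold change of every tested gene of 7 lists in CWR22Rv1 and in DU145, each point a gene, filled for a limma adjusted p under 0.05, with the list median as a bar and the median of all genes as a dashed line. In DU145 the ATF4-regulated synthetases (median 0.97) and the ATF4 pathway (0.73) lie above the other cytosolic (0.25) and the mitochondrial (0.40) synthetases, while the interferon markers (-1.49) lie below 0; in CWR22Rv1 most points are open.

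WARS, the tryptophan enzyme, was the exception among the 12 ATF4-listed members. Its normalised counts were 3807, 3305 and 3734 in OE control and 3687, 4250 and 3511 in GALNT7 OE, with a log2 fold change of 0.08 (SE 0.088, limma adjusted p = 0.522), and the groups overlapped. WARS is also a classical interferon-gamma target. All 9 interferon markers tested fell in DU145, against 20.5% of all tested genes. Their median log2 fold change was -1.49, and OAS1, an antiviral enzyme, was at -3.93. Whether the interferon markers and WARS are linked was not tested. The 6 proliferation markers moved the other way in these libraries and all rose (median 1.78), and their part in the rise of the synthetases was not tested.

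QARS differed little as well, with 4424, 4213 and 4456 normalised counts in OE control and 4720, 4450 and 4491 in GALNT7 OE (log2 fold change 0.06, SE 0.045, limma adjusted p = 0.317). It was the only enzyme of the multisynthetase complex that did not pass. The other 7 (DARS, EPRS, IARS, KARS, LARS, MARS and RARS) rose, and the median of the 8 was 0.83. All 3 scaffolds rose. AIMP2 had 575, 557 and 531 in OE control and 864, 889 and 985 in GALNT7 OE (log2 fold change 0.72), EEF1E1 differed by 0.64 and AIMP1 by 0.54, with limma adjusted p values of 0.000449, 0.000498 and 0.00111. By class, 13 of 17 class I members and 13 of 17 class II members rose. The share that rose over all tested genes was 22.9%, and 32.0% among those whose mean count reached 100.

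GARS and KARS, which serve both compartments, rose together with the cytosolic enzymes. GARS, the glycine enzyme, had 4279, 4357 and 3569 normalised counts in OE control and 8105, 8836 and 7633 in GALNT7 OE, a 2.02-fold difference (limma adjusted p = 0.000186). KARS, the lysine enzyme, had 3124, 3201 and 3127 in OE control and 5245, 5278 and 5663 in GALNT7 OE, a 1.71-fold difference (limma adjusted p = 3.22e-05). For both genes the highest control library lay below the lowest GALNT7 OE library.

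Among the mitochondrial enzymes IARS2 had the highest fold change. It had 4456, 4193 and 4044 normalised counts in OE control and 7452, 8208 and 7774 in GALNT7 OE, a 1.85-fold difference (log2 fold change 0.88, SE 0.055, limma adjusted p = 3.96e-05). NARS2 had 420, 328 and 332 in OE control and 668, 580 and 621 in GALNT7 OE (log2 fold change 0.80, SE 0.12, limma adjusted p = 0.00191). YARS2, the one mitochondrial member with the ATF4 core, had 154, 189 and 237 in OE control and 309, 432 and 276 in GALNT7 OE (log2 fold change 0.80, SE 0.22, limma adjusted p = 0.0229). The spread of YARS2 was wide and its call was lost without OE control replicate 1, OE control replicate 2 or GALNT7 OE replicate 2. LARS2 differed by 0.67, and EARS2, CARS2, TARS2, MARS2 and HARS2 by 0.28 to 0.43. Each of these last 5 lost its call without at least 4 of the 6 libraries taken singly.

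PARS2 pointed down, with 135, 144 and 139 normalised counts in OE control and 111, 116 and 121 in GALNT7 OE (log2 fold change -0.26, SE 0.11, limma adjusted p = 0.102). Its groups did not overlap, but the difference did not pass the threshold. The cytosolic gene for proline, EPRS, which also charges glutamate, had a log2 fold change of 1.03 in the same libraries. AARS2 (-0.04), SARS2 (0.11), RARS2 (0.23), WARS2 (0.25) and FARS2 (0.41) did not pass either. The number of mitochondrial members called was sensitive to single libraries, and ranged from 4 to 6 when each library was left out in turn.

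Set side by side by amino acid, the cytosolic gene had the higher log2 fold change for 8 of 12 amino acids in DU145. In CWR22Rv1 the cytosolic gene had the higher value for 3 of 12, and of these genes only IARS2 passed the threshold there. In DU145 alanine showed the widest gap, with AARS at 1.03 and AARS2 at -0.04. Serine was similar, with SARS at 0.95 and SARS2 at 0.11. For histidine the pair HARS and HARS2 differed little, at 0.24 and 0.28. These 2 genes are related in sequence, and their annotated spans overlap at one end on opposite strands of chromosome 5 (HARS at 140673904 to 140691862, HARS2 at 140691426 to 140699318). Whether strand was used in the counting was not given in the sources used here, so the assignment of reads in the overlap is uncertain.

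Partners of the mitochondrial enzymes were mostly higher in DU145 as well. Of 12 translation partners 8 rose and none fell, with a median log2 fold change of 0.43. MTIF2, the mitochondrial initiation factor, differed by 0.85 and GFM1, an elongation factor, by 0.72 (limma adjusted p = 0.00103 and 0.00109). Of 10 genes for the maturation of mitochondrial tRNAs 6 rose and none fell, with a median of 0.44. Over all tested genes 22.9% were higher, and 32.0% of those whose mean count reached 100. PUS1, a pseudouridine synthase, differed by 0.95 and TRMT10C, a subunit of mitochondrial RNase P, by 0.67 (limma adjusted p = 0.00013 and 0.0015).

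On the cytosolic side, XPOT, which exports tRNA from the nucleus, differed 2.15-fold with 4413, 4738 and 4598 normalised counts in OE control and 9738, 9929 and 9947 in GALNT7 OE (limma adjusted p = 4.85e-06). DTD1, a proofreading enzyme that removes D-amino acids from tRNA, differed by 0.87 on the log2 scale (limma adjusted p = 0.000268). The elongation factors that act after charging were mixed, with 2 of 6 higher, 1 lower and a median of 0.08. These counts were near the background, as 22.9% of all tested genes were higher and 20.5% lower. Among genes whose mean count reached 100, 32.0% were higher. EIF5A rose by 0.70 and EEF2, the translocation factor, fell by 0.25.

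In CWR22Rv1, few synthetases passed the threshold between GALNT7 KD and shControl. Of 19 cytosolic members 2 rose (KARS and EPRS) and none fell, and of 16 mitochondrial members 1 rose (IARS2) and none fell. Over the 17906 genes tested 5.28% were higher and 3.79% lower, 6.91% were higher among genes whose mean count reached 100, so the members' share was close to the background. The median log2 fold change was 0.04 for the cytosolic members, 0.09 for the mitochondrial members and -0.01 for all genes. The ranges of the groups were separate for 12 of 35 members, against 32.5% of all genes.

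IARS2 had 7467, 7712 and 6916 normalised counts in shControl and 9926, 10183 and 9968 in GALNT7 KD, a 1.36-fold difference (log2 fold change 0.45, SE 0.048, limma adjusted p = 0.00401). EPRS had 10135, 10285 and 9676 in shControl and 12791, 12829 and 11075 in GALNT7 KD (log2 fold change 0.28, SE 0.064, limma adjusted p = 0.0428). KARS had 4727, 5341 and 5073 in shControl and 6132, 6274 and 5927 in GALNT7 KD (log2 fold change 0.28, SE 0.056, limma adjusted p = 0.0294). The ranges were separate for all 3 genes, yet the calls differed in stability. IARS2 passed in all 17 alternative settings that kept the adjusted p threshold of 0.05 with no minimum fold change. EPRS lost its call without any 1 of the 3 shControl libraries, and without GALNT7 KD replicate 1 or 2, with adjusted p from 0.0857 to 0.134 in those settings. It was also lost with no filter on low counts, under 75th percentile scaling and with eBayes without trend. KARS lost its call without shControl replicate 1 or 3, without GALNT7 KD replicate 1 or 2, and with eBayes without trend.

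EPRS and IARS2 are close neighbours on chromosome 1 (219968601 to 220046658 and 220094102 to 220148041 on GRCh38). Of 8 other protein-coding genes tested within 1 Mb of either, 4 were higher in GALNT7 KD and none lower, with a median log2 fold change of 0.54. The part of this region in the EPRS and IARS2 values was not tested. With the median of each chromosome subtracted EPRS was at 0.232 and no longer passed (limma adjusted p = 0.066), while IARS2 was at 0.395 and did. The median of a whole chromosome does not remove a difference confined to this region. Around KARS on chromosome 16, none of 17 neighbours passed and their median was 0.01.

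**Figure D5:**
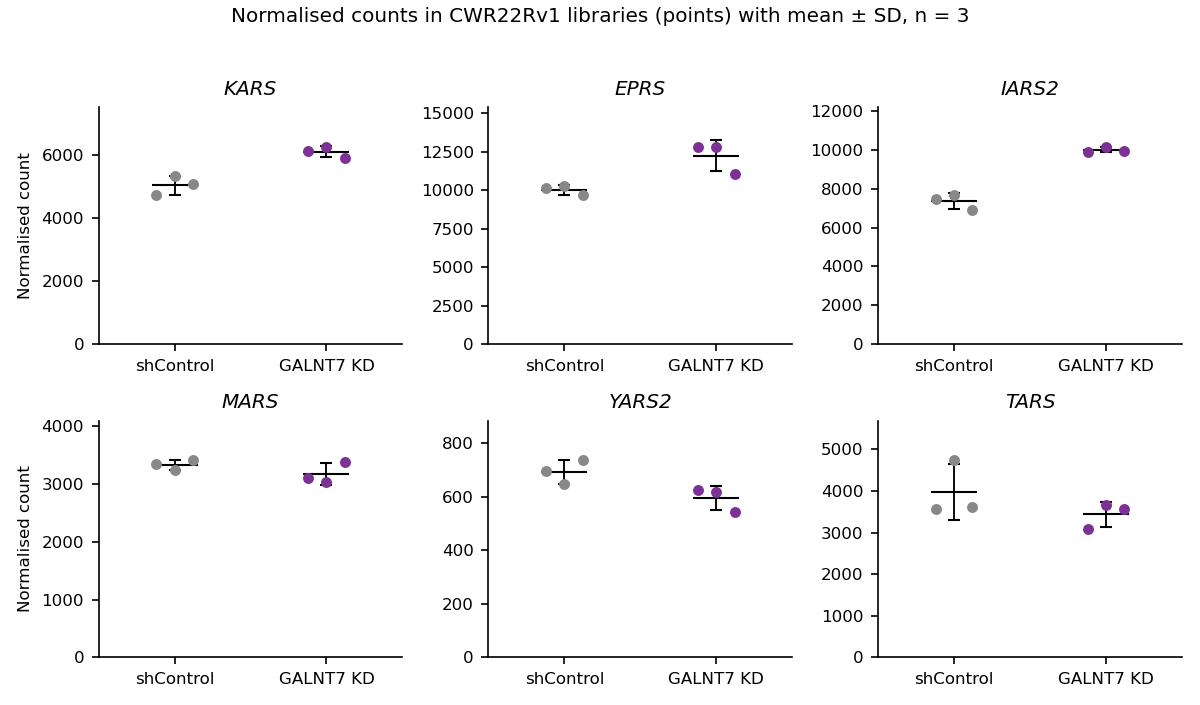
Normalised counts (linear axes from 0) of 6 synthetase genes in each of the 3 shControl and 3 GALNT7 KD libraries of CWR22Rv1, with the mean and SD. KARS, EPRS and IARS2 are higher in every GALNT7 KD library, MARS and TARS overlap between groups, and YARS2 is lower in every GALNT7 KD library without passing the test.

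MARS, the methionine enzyme, and YARS2 lie on chromosome 12, where the median over 922 tested genes was a log2 fold change of -0.28 in GALNT7 KD and 202 of them were lower. MARS had 3335, 3234 and 3410 normalised counts in shControl and 3096, 3023 and 3377 in GALNT7 KD (log2 fold change -0.07, limma adjusted p = 0.478). YARS2 had 694, 647 and 737 in shControl and 624, 618 and 543 in GALNT7 KD (log2 fold change -0.22, limma adjusted p = 0.188). Neither passed the threshold. With the median of the chromosome subtracted MARS was at 0.20 and YARS2 at 0.05, and neither passed (adjusted p = 0.112 and 0.779, limma). In DU145 both rose, MARS from 4647, 4878 and 4598 to 9343, 8583 and 8195 (limma adjusted p = 4.53e-05).

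Several members pointed up in GALNT7 KD without passing. CARS (0.33), FARSA (0.22), IARS (0.21), RARS (0.20), FARSB (0.18) and QARS (0.10) had separate ranges, with limma adjusted p from 0.0591 for FARSA to 0.158 for QARS. Among the mitochondrial members MARS2 (0.18) did so too, with a limma adjusted p of 0.195. TARS had 3566, 4743 and 3610 in shControl and 3093, 3664 and 3563 in GALNT7 KD, and the value of shControl replicate 2 stood above the other 5. WARS had 2628, 3329 and 2762 in shControl and 2694, 3003 and 4224 in GALNT7 KD (limma adjusted p = 0.597). WARS2 (-0.28, limma adjusted p = 0.128) and YARS2 (-0.22, limma adjusted p = 0.188) pointed down with separate ranges. CARS2 (0.36) and TARS2 (0.34) pointed up with overlapping ranges and did not pass. Separate ranges in either direction were seen for 12 of 35 members, close to the 32.5% of all genes.

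The ATF4-listed synthetases as a group were at a median of 0.01 in GALNT7 KD, and the other cytosolic members at 0.18. ATF4 mRNA was slightly lower, with 7096, 7151 and 7133 normalised counts in shControl and 6188, 6161 and 6203 in GALNT7 KD (log2 fold change -0.20, SE 0.034, limma adjusted p = 0.0162). Of the 22 pathway genes SLC7A5 (-0.65), ATF5 (-0.46) and ATF4 fell, DDIT4 (0.47), an inhibitor of mTOR complex signalling, rose, and 18 did not pass. Over all genes tested in this line 3.79% were lower and 5.28% higher, and 6.91% were higher where the mean count reached 100. AIMP2 fell from 1810, 1776 and 1798 to 1466, 1567 and 1467 (log2 fold change -0.26, limma adjusted p = 0.0364), whereas AIMP1 and EEF1E1 had values of 0.02 and 0.01. None of the translation partners of mitochondria passed, and of the 10 tRNA maturation genes only HSD17B10, a subunit of mitochondrial RNase P, rose (0.27). A single higher call in such a list is near the background.

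The knockdown and the overexpression were made in different lines and share no libraries. KARS, EPRS and IARS2 were higher in both comparisons, and no member moved in opposite directions. Over the 16124 genes tested in both, 1.72% were higher in both and 2.88% moved in opposite directions by the same thresholds. KARS differed by 0.28 in CWR22Rv1 and 0.78 in DU145, EPRS by 0.28 and 1.03, and IARS2 by 0.45 and 0.88. For the other 23 members that rose in DU145 the CWR22Rv1 value did not pass, and whether the 2 lines differ was not tested.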

How the data were processed

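RNA of 12 libraries was sequenced after stranded polyadenylated RNA preparation. The deposited values are a signal, normalised counts per Ensembl gene. The submitters' processing notes name FastQC, Salmon, DESeq2, R 3.5.3 and build hg38, and the authors divided gene counts by 1 size factor per library. The Salmon version and annotation were not given in the sources used here. Whole reads were recovered for 100% of values (tolerance 0.01). Identifiers were named with GENCODE 29 (56113 of 59424 matched).

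Genes whose mean value over a cell line's libraries reached 5 were tested with limma 3.58.1 (trend) on log2(value + 1), separately in each cell line, and p-values were adjusted by Benjamini-Hochberg over all tested genes with a threshold of 0.05. Fold changes are on this scale, and understate those of low genes. Levels per kilobase used the longest protein-coding transcript. The tests were checked on simulated counts. Members and gene lists were chosen with earlier results of these data known. All members may be named, with library values for the 4 highest per comparison and members of stated interest. Other lists give up to 2 genes called in each direction. Alternatives were pseudocounts of 0.5 and 5, filters, scalings, thresholds, a replicate block, single libraries left out, subtraction of chromosome medians (knockdown), and edgeR 4.0.16 or DESeq2 1.42.0 on recovered reads. The authors' reads were not reprocessed.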

Additional observations from a re-analysis of the deposited data

How the results depend on the processing

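In DU145 no cytosolic member was lower under any alternative. The cytosolic count of 17 higher was 14 under 75th percentile scaling, under quantile normalisation and at an adjusted p of 0.01. It was 12 at a minimum log2 fold change of 0.5, and 14 to 16 without single libraries. The mitochondrial count of 9 higher changed to 5 under 75th percentile scaling, 2 at an adjusted p of 0.01, 4 at a minimum log2 fold change of 0.5, and 4 to 6 without single libraries. PARS2 became 1 lower mitochondrial member under 75th percentile scaling and with eBayes without trend. The cytosolic median of 0.89 was 0.79 under 75th percentile scaling, which shifted all genes by -0.099, and 0.80 under quantile normalisation, and 0.83 to 0.92 without single libraries. The mitochondrial median of 0.40 was 0.30 and 0.35 under these scalings and 0.33 to 0.38 without single libraries. In CWR22Rv1 the cytosolic count of 2 higher became 1 with no filter, under 75th percentile scaling and with chromosome medians subtracted, 0 with eBayes without trend, at an adjusted p of 0.01 or at a minimum log2 fold change of 0.5, 5 with DESeq2 (FARSA, FARSB and IARS added), and 0 to 3 without single libraries. The cytosolic median of 0.036 was 0.014 under 75th percentile scaling, 0.017 under quantile normalisation, 0.073 with chromosome medians subtracted and 0.018 to 0.084 without single libraries. The mitochondrial count of 1 became 0 at that minimum. The mitochondrial median of 0.09 was 0.071 under 75th percentile scaling, 0.069 with chromosome medians subtracted, 0.116 with edgeR, 0.119 with DESeq2 and 0.071 to 0.153 without single libraries. The 3 members higher in both comparisons became 1 with eBayes without trend and 6 with DESeq2. The causes were not tested, beyond the fewer samples or stricter thresholds by construction. GALNT7 kept its call and direction in every alternative run. Same-numbered libraries did not deviate together (correlations of deviations -0.011 to 0.0747), so replicate numbers were not taken to pair them. With a replicate block 16 cytosolic and 7 mitochondrial members were higher in DU145 and 2 and 1 in CWR22Rv1.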

Other observations

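The neighbourhood of EPRS and IARS2 on chromosome 1 was looked at after their values had been seen. In CWR22Rv1 the genes LYPLAL1, BPNT1, C1orf115 and HLX, within 1 Mb of either, were higher in GALNT7 KD, with log2 fold changes of 0.64, 0.44, 0.75 and 0.80 (limma adjusted p = 0.0114, 0.01, 0.0105 and 0.00512). BPNT1 lies between EPRS and IARS2, and RAB3GAP2, next to IARS2 on the other side, was at 0.02 (limma adjusted p = 0.958). In DU145 3 of 7 of these neighbours were higher and 1 lower, with a median log2 fold change of 0.00.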
